A study of Mus musculus with 6 samples.

Results

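Most RNF and TRIM genes encode ubiquitin ligases that carry a RING finger, and the set described here holds every gene on the array whose single annotated symbol begins with Rnf or Trim followed by a digit. The rule found 68 genes of the 10698 with 1 symbol, 44 of them Rnf and 24 Trim genes, on 74 probes. A ratio on all 6 arrays was present for 62 of these probes and 58 of the genes (41 Rnf and 17 Trim), and these entered the fit with 8331 genes in all. The other 10 members had a probe with a ratio on some arrays only and are described apart. Symbols stand for names and not for activity, so a few members without a known ligase role, such as the germ cell protein gene Rnf17, were kept.

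A ubiquitin ligase (E3) brings a ubiquitin-loaded conjugating enzyme (E2) to a chosen protein, and a RING finger holds that E2 in place. The attached ubiquitin sends the protein to the proteasome or, with other chain types, changes its signalling, and chains of this second kind carry the signal from Toll-like receptor 4 to NF-kappaB in macrophages. Most TRIM proteins join the RING to B-box and coiled-coil segments, and several TRIM proteins act in antiviral defence and are known as interferon-induced genes. RING-between-RING ligases differ in that they take the ubiquitin onto themselves before passing it on.

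The samples compared RAW 264.7 mouse macrophages exposed for 1 h to lipopolysaccharide (LPS, 100 ng/ml, a bacterial cell wall component) and LPS-binding protein (LBP, 100 pM, which hands LPS to its receptor complex) with untreated RAW 264.7 cells also cultured for 1 h. RAW 264.7 is a single virus-transformed tumour line, so the data come from 1 genotype, and the labels write RAW 264.4 in places. Both RNAs were hybridised together on each of 6 arrays, with treated RNA in Cy5 on 3 arrays and in Cy3 on 3, numbered sets 1 to 3 in each orientation, and the arrays are called Cy5 or Cy3 arrays by the dye of the treated RNA. Values are log2 ratios of treated over untreated RNA, so 1 is a doubling and a negative value means less RNA in treated cells. The sign takes Cy5 as the numerator, since the labels name the Cy5 channel as test on each array, and would turn for every gene otherwise. In this direction the LPS-response genes Tnf (2.44), Il1b (2.54) and Egr1 (5.13) were higher in treated cells. The 2 arrays of a set were averaged, and means are given with the SD over the 3 set averages (n = 3). A gene passed the test at an adjusted p under 0.05 (limma against 0, two-sided, Benjamini-Hochberg over all 8331 genes). The labels do not say whether the arrays of a set share RNA extracts, and the averages treat them as 1 replicate. Nor do they say that sets are separate cultures, so a p-value here reflects how far the sets scatter, and that scatter may be technical. In RNA from whole cultures, a change in how many cells make a transcript and a change in RNA per cell cannot be told apart.

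Ratios hold no level, so the cell type could not be checked by the level of its markers. Of 12 macrophage marker symbols, 9 had a ratio on all arrays and 1 passed, Adgre1, at 0.55. Of 8 lymphocyte marker symbols, 6 were in the fit and 2 passed, Cd4 at 0.47 and Cd79a at 0.20, and of 5 fibroblast markers the 1 in the fit, Dcn, was at -0.04. The part of these marker genes in the results was not tested. Zeros, read as no measured ratio, made up between 8.99% and 23.9% of the values on an array.

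For the Rnf and Trim genes, the regions around the transcript starts are shown for the 2 members that rose most and for those members past the test in which a binding motif of an LPS-activated factor was found. Each run is a RefSeq window (GRCm38.p6) of 300 bases, from 250 before to 50 after an annotated transcript start, 5′ to 3′ on the gene's strand, and capitals mark motif matches.
Rnf225, chr7:12927166-12927465, plus strand: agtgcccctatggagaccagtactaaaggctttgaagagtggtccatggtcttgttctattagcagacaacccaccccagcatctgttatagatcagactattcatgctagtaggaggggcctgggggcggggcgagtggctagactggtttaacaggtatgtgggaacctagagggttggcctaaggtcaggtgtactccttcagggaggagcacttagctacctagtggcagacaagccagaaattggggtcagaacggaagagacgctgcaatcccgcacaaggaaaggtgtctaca
Rnf19b, chr4:129057894-129058193, plus strand: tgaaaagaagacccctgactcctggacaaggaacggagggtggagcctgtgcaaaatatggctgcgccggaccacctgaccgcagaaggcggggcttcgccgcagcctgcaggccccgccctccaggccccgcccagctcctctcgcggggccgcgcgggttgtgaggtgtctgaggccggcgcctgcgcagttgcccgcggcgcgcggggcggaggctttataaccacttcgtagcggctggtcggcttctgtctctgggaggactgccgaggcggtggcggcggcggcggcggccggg
Rnf2, chr1:151500942-151501241, minus strand: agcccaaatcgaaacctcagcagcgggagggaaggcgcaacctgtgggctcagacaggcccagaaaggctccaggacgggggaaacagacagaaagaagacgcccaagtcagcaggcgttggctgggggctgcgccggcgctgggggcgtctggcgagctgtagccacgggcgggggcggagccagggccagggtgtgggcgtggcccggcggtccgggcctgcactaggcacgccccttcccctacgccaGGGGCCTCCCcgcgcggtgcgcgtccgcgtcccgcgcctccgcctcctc
Rnf4, chr5:34336000-34336299, plus strand: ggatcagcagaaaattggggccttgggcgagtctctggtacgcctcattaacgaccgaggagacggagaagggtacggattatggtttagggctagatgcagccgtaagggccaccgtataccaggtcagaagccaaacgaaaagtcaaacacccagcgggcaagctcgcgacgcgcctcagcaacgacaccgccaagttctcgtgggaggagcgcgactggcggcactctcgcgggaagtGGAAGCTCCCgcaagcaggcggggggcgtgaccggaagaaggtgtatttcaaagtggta
Trim21, chr7:102565433-102565732, minus strand: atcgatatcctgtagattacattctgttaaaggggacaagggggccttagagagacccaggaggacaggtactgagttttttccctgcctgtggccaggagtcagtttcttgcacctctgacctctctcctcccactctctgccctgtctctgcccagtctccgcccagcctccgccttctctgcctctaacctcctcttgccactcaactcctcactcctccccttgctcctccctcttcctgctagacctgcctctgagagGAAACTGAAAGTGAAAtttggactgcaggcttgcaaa

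Windows were present for 50 of the 68 members (65 windows), among them 7 of the 8 that rose and 3 of the 7 that fell. The motifs searched on both strands were the kappaB consensus bound by NF-kappaB, TGANTCA bound by AP-1, TGACGTCA bound by CREB, and, for interferon regulatory factors, GAAA followed by any 2 bases and a second GAAA. They were chosen after the ratios were seen. A kappaB match was found in 3 of the 11 windows of members that rose, 1 of Rnf2 and 2 overlapping windows of Rnf4 that share the match shown, whereas the third Rnf4 window held none. The share was 9.9% among the 8503 windows of genes in the fit, 8.5% among all 32851 windows, and 4 of 45 windows of members that did not pass. Among the 3 windows of members that fell, Trim21 had 2 overlapping matches to the interferon factor motif, while 6 of 45 windows of members that did not pass and 3.2% of the windows of genes in the fit had at least 1. In the windows of Rnf225 and Rnf19b none of these motifs was found, which says only that these letters are not in those windows. The AP-1 and CREB motifs were each found in 0 of 11 windows of members that rose and 0 of 3 of those that fell, against 6.5% and 2.4% of the windows of genes in the fit.

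Of the 58 members in the fit, 15 passed the test, 8 higher and 7 lower in treated cells. That was 25.9% of the members, and 13.2% of all genes passed. Members that rose made up 13.8% against 6.96% of all genes, and members that fell made up 12.1% against 6.21%. These shares are a description, since the set was chosen by name and no test of the difference was made. The changes were small beside those of the LPS-response genes, and 0 of the 15 reached 2-fold. Apart from Trim59, each of the 15 rested on 1 probe, so no other probe of the gene could be compared. The median ratio of the 58 members was -0.03 and that of all genes was -0.01, while the median of the absolute ratio was 0.081 for the members and 0.069 for all genes. All 6 arrays had 1 sign for 15 members (25.9%), against 19.1% of all genes, and 13 of these 15 were among the members that passed.

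**Figure D1:**
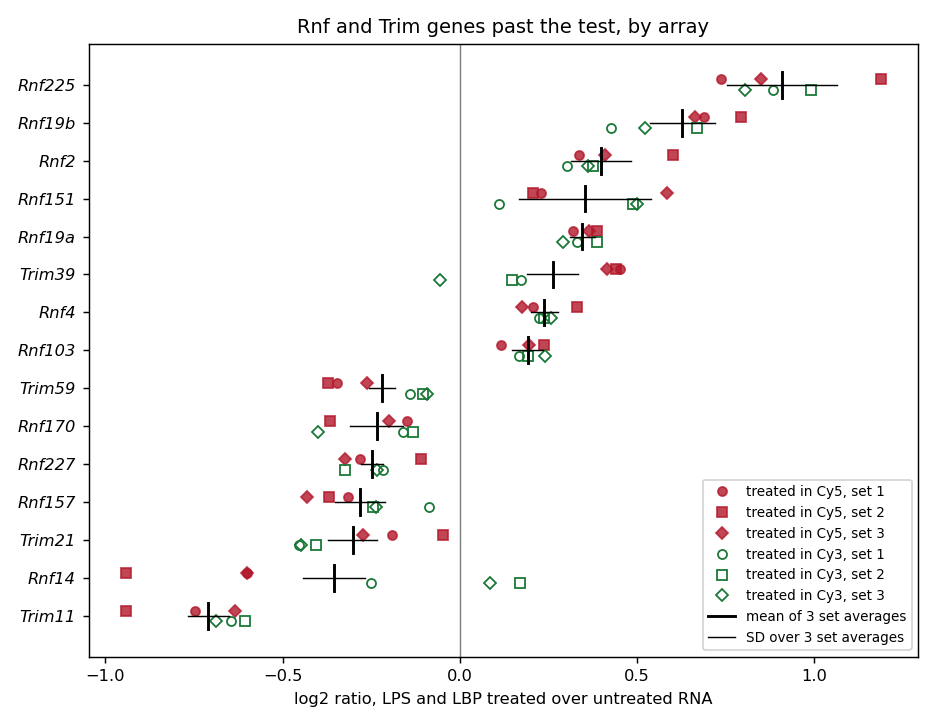
Log2 ratios of treated over untreated RNA (horizontal axis) of the 15 Rnf and Trim genes past the test on each of the 6 arrays. Filled red symbols are the Cy5 arrays, open green symbols the Cy3 arrays, symbol shapes are sets, and the vertical bar and thin line are the mean and SD of 3 set averages. Rnf225 and Rnf19b lie furthest above 0 and Trim11 furthest below, while the 2 orientations of Rnf14 and Trim39 lie apart.

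The RING-between-RING ligases under Rnf symbols had 3 members in the fit, and each passed the test, against 13.2% of all genes. Ligases of this type under other symbols were not counted here. Among them, Arih2 rose (0.32, limma, adjusted p = 0.0062), while Arih1 (0.13, adjusted p = 0.102) and Rbck1 (0.01, adjusted p = 0.867) did not pass. The role groups were drawn up with earlier results of these data known. Rnf19b, a membrane-anchored ligase also known from natural killer cells and macrophages, had ratios of 0.69, 0.79 and 0.66 on the Cy5 arrays and 0.43, 0.67 and 0.52 on the Cy3 arrays (sets 1, 2 and 3 each). All 6 arrays were above 0, and the mean was 0.63 ± 0.09 (SD, n = 3), a 1.54-fold rise (limma, adjusted p = 0.000694). Its close relative Rnf19a, known as dorfin, had 0.32, 0.39 and 0.37 in Cy5 and 0.33, 0.39 and 0.29 in Cy3. These arrays lay within a narrow band, and Rnf19a rose by 0.35 ± 0.03, or 1.27-fold (limma, adjusted p = 0.00335). The third, Rnf14, a coactivator of the androgen receptor, had -0.60, -0.94 and -0.60 in Cy5 but -0.25, 0.17 and 0.08 in Cy3, so that the orientations did not overlap. Its mean fell by 0.36 ± 0.09, or 1.28-fold (limma, adjusted p = 0.00595), but was 0.0019 on the 3 Cy3 arrays alone (limma, adjusted p = 0.992). Without set 1 the mean of Rnf14 was -0.32 and did not pass (limma, adjusted p = 0.0593). Rnf19a and Rnf19b kept the call in each of the 12 alternative fits run on them.

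Among the ligases of chromatin and DNA damage, 2 of 3 rose, against 6.96% of all genes. Rnf2, known as RING1B, is the catalytic subunit of Polycomb complex 1 and adds ubiquitin to histone H2A. It had 0.34, 0.60 and 0.41 in Cy5 and 0.30, 0.38 and 0.36 in Cy3, above 0 on each array, with a mean of 0.40 ± 0.08, or 1.32-fold (limma, adjusted p = 0.0037). Rnf4, which recognises proteins that carry SUMO chains, had 0.21, 0.33 and 0.18 in Cy5 and 0.22, 0.24 and 0.26 in Cy3. Its mean was 0.24 ± 0.04, or 1.18-fold (limma, adjusted p = 0.0143), with no call without set 1 (0.25, adjusted p = 0.0939) or without set 2 (0.22, adjusted p = 0.0538), nor on either orientation alone or with incomplete probes. Rnf8, which marks chromatin beside DNA breaks, was at -0.05 ± 0.02 and did not pass (limma, adjusted p = 0.438, 95% interval -0.15 to 0.043).

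The membrane-bound RNF ligases held the member that rose most. Rnf225, a RING protein gene of which little is known, had 0.74, 1.19 and 0.85 in Cy5 and 0.88, 0.99 and 0.80 in Cy3. No array was below 0.7, and the mean of 0.91 ± 0.16 (SD, n = 3) was a 1.88-fold rise (limma, adjusted p = 0.000452), which ranked 87 among the 8331 genes. Rnf103, a ligase of the endoplasmic reticulum, had 0.12, 0.24 and 0.20 in Cy5 and 0.17, 0.19 and 0.24 in Cy3. It rose by 0.19 ± 0.04 (limma, adjusted p = 0.0331), the smallest change past the test here. With set 1, 2 or 3 left out Rnf103 did not pass, at 0.22, 0.18 and 0.18, and it kept the call in 5 of 12 alternative fits. Rnf170, which directs the inositol trisphosphate receptor to degradation, had -0.15, -0.37 and -0.20 in Cy5 and -0.16, -0.13 and -0.40 in Cy3. It was below 0 on each array and fell by 0.23 ± 0.07 (limma, adjusted p = 0.0234), with no call when set 1, 2 or 3 was left out (-0.27, -0.23 and -0.20), and with the call kept in 6 of 12 alternative fits.

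Of the 12 membrane-bound ligases in the fit, 25% passed, against 13.2% of all genes, and the other 9 did not pass. Rnf128, known as GRAIL and linked to T cell anergy, came nearest. Its ratios were -0.12, -0.27 and -0.07 in Cy5 and -0.20, -0.21 and -0.16 in Cy3, with a mean of -0.17 ± 0.06 (limma, adjusted p = 0.0566, 95% interval -0.28 to -0.063). The ratio was below 0 on all 6 arrays, and also for Rnf43, which removes Wnt receptors from the cell surface (mean -0.11 ± 0.04, adjusted p = 0.152). The remaining 7, Rnf13, Rnf26, Rnf121, Rnf130, Rnf167, Rnf186 and Rnf215, had means between -0.10 (Rnf167) and 0.05 (Rnf13). Rnf167, singled out after its values were seen, was at 0.15 on both set 3 arrays and between -0.18 and -0.26 on the other 4, and without set 3 it passed the test.

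Of the remaining 23 RNF genes in the fit, 1 rose and 2 fell, or 13% against 13.2% of all genes. Rnf151, a testis gene linked to acrosome formation, had 0.23, 0.21 and 0.58 in Cy5 and 0.11, 0.49 and 0.50 in Cy3. Each array was above 0, but the set averages spread widely, and the mean was 0.35 ± 0.19 (limma, adjusted p = 0.028). Rnf151 kept the call in 7 of 12 alternative fits. It did not pass without set 3 (0.26, limma, adjusted p = 0.0582), on the Cy5 or the Cy3 arrays alone (adjusted p = 0.0684 and 0.0923), with incomplete probes (adjusted p = 0.102) or with zeros kept (adjusted p = 0.0619). Rnf157, known for a role in nerve cell survival, had -0.32, -0.37 and -0.43 in Cy5 and -0.09, -0.24 and -0.24 in Cy3. All of these were below 0, more so in Cy5, and Rnf157 fell by 0.28 ± 0.07 (limma, adjusted p = 0.0111), with -0.19 and no call on the Cy3 arrays alone (adjusted p = 0.137). Rnf227, a little studied gene, had -0.28, -0.11 and -0.32 in Cy5 and -0.22, -0.32 and -0.23 in Cy3. It fell by 0.25 ± 0.03 (limma, adjusted p = 0.0113) and did not pass without set 1 (-0.25, adjusted p = 0.0953), on the Cy5 arrays alone (adjusted p = 0.0718) or on the Cy3 arrays alone (adjusted p = 0.0636).

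Among the 20 that did not pass, Rnf11, a partner of the NF-kappaB inhibitor Tnfaip3, had 0.30, 0.18 and 0.24 in Cy5 and 0.19, 0.19 and -0.03 in Cy3. The mean was 0.18 ± 0.07 (limma, adjusted p = 0.0524, 95% interval 0.069 to 0.29). Rnf146, which recognises poly(ADP-ribose) on axin, was at -0.17 ± 0.12 (limma, adjusted p = 0.109). Rnf135, the ligase Riplet that activates the RNA sensor RIG-I, was at -0.04 ± 0.06 (limma, adjusted p = 0.562), and its other probe, measured on 5 arrays, averaged 0.08. Rnf41, known as Nrdp1 and as a ligase of Toll-like receptor adaptors in macrophages, was at 0.04 ± 0.06, and its 2 probes at -0.01 and 0.10 did not pass either. The means of Rnf7, the RING subunit of cullin 5 ligases, Rnf34, Rnf113a2, Rnf115 and Rnf123 lay between -0.01 (Rnf123) and 0.0075 (Rnf115). Rnf138rt1 is a retrogene of Rnf138 by its name, and a probe may not tell such copies apart. It was at -0.03 ± 0.07.

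Of the 4 interferon and antiviral TRIM genes in the fit, 0 rose and 1 fell (limma), also at an unadjusted p under 0.05. Of all genes, 6.96% rose and 6.21% fell past the test. Trim21, a cytosolic receptor for antibody-coated viruses that also binds interferon regulatory factors, had -0.19, -0.05 and -0.27 in Cy5 and -0.45, -0.41 and -0.45 in Cy3. It was below 0 on each array, further in Cy3, and fell by 0.30 ± 0.07, or 1.23-fold (limma, adjusted p = 0.00834). The call was lost without set 1 (-0.29, adjusted p = 0.0773) and on the 3 Cy5 arrays alone (-0.17, adjusted p = 0.138). Trim25, which activates RIG-I, had -0.17, -0.0081 and -0.09 in Cy5 and -0.01, -0.16 and 0.04 in Cy3. Its mean was -0.07 ± 0.04 (limma, adjusted p = 0.365, 95% interval -0.166 to 0.034). Trim30a, which in mouse restrains Toll-like receptor signalling through degradation of Tab2 and Tab3, averaged -0.08 ± 0.19 (limma, adjusted p = 0.528, 95% interval -0.261 to 0.097). Trim34a averaged 0.08 ± 0.25, with 0.71 on the set 2 array in Cy3 and -0.25 to 0.16 on the other 5 arrays. Trim12a, which lies 2 genes from Trim34a on chromosome 7, had ratios on 3 arrays, 0.09 and 0.07 in Cy5 and 0.33 in Cy3.

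Of the 3 TRIM co-regulators of transcription 0 passed (limma), against 13.2% of all genes, and 0 had an unadjusted p under 0.05. Trim28, the corepressor of KRAB zinc finger proteins, was at -0.02 ± 0.04 (95% interval -0.12 to 0.083), Trim33, a regulator of Smad4, at -0.06 ± 0.08 and Trim27 at 0.10 ± 0.14. Of the TRIM genes known from muscle and nerve, Trim2, Trim3 and Trim32 had means of 0.00027, 0.03 and -0.10, and 0 passed (limma) or had an unadjusted p under 0.05.

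The remaining TRIM genes held the member that fell most. Trim11, first known for sending the peptide humanin to degradation, had -0.75, -0.94 and -0.63 in Cy5 and -0.64, -0.61 and -0.69 in Cy3. Each of the 6 arrays was below -0.6, and the mean fell by 0.71 ± 0.06, a 1.64-fold fall (limma, adjusted p = 0.000225). Ordered from the highest mean down, it ranked 8302 among the 8331 genes. Trim59, a TRIM protein with a membrane-spanning segment, had -0.35, -0.37 and -0.26 in Cy5 and -0.14, -0.10 and -0.09 in Cy3, so that the orientations were apart though both were below 0. It fell by 0.22 ± 0.04 (limma, adjusted p = 0.0193). Trim59 is the mean of 2 probes, and the one at -0.33 passed at the probe level (limma, adjusted p = 0.00558) while the one at -0.11 did not (adjusted p = 0.17). The probe that passed had -0.52, -0.72 and -0.46 in Cy5 but -0.11, -0.03 and -0.12 in Cy3. For the other probe the orientations overlapped, with -0.17, -0.03 and -0.06 in Cy5 and -0.17, -0.18 and -0.07 in Cy3. Trim59 was not called without set 1 (-0.21), without set 2 (-0.21), with incomplete probes included (adjusted p = 0.0625) or on the Cy3 arrays alone, where the mean was -0.11 (adjusted p = 0.254).

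Trim39, known for stabilising the death-promoting protein Moap1, had 0.45, 0.44 and 0.42 in Cy5 but 0.17, 0.15 and -0.06 in Cy3. The Cy5 arrays lay above all Cy3 arrays, and the mean rose by 0.26 ± 0.07 (limma, adjusted p = 0.015). On the Cy3 arrays alone the mean was 0.09 (limma, adjusted p = 0.463), and without set 1 it was 0.24 and did not pass (adjusted p = 0.119), nor did it with incomplete probes included (adjusted p = 0.0585). Trim44 at 0.14 ± 0.11, Trim23 at -0.11 ± 0.08, Trim7 at -0.06 ± 0.15 and Trim10 at -0.03 ± 0.14 did not pass.

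**Figure D2:**
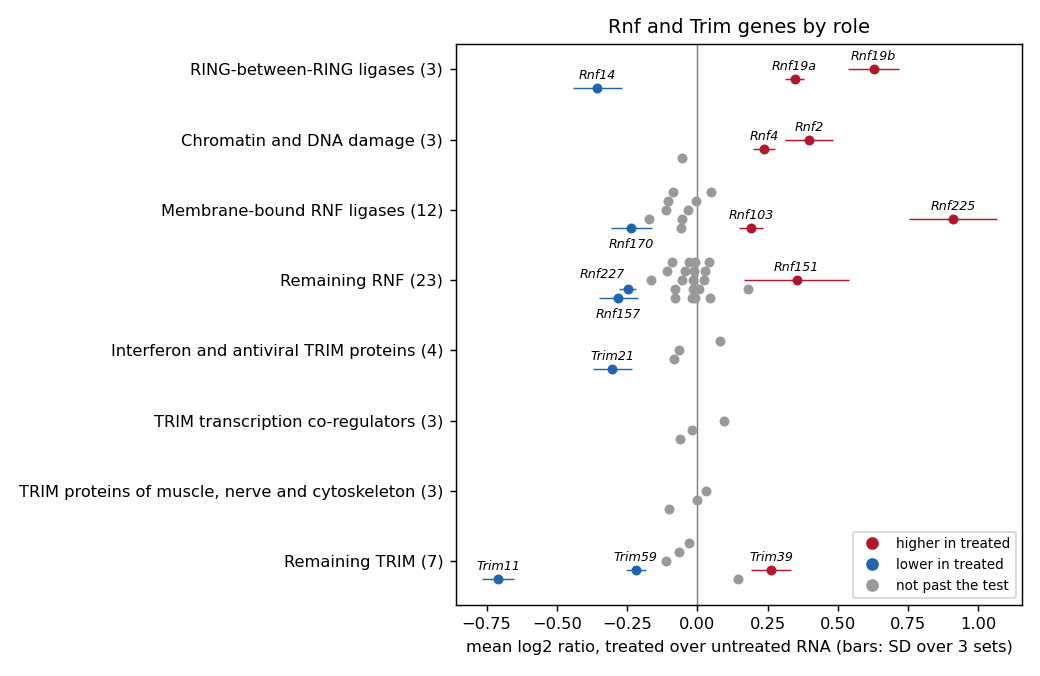
Mean log2 ratio of treated over untreated RNA (horizontal axis) of the 58 Rnf and Trim genes in the fit, by role (vertical axis, number of genes in brackets). Red points were higher and blue points lower in treated cells at an adjusted p under 0.05, with bars for the SD over 3 sets, and grey points did not pass. The 3 RING-between-RING genes among these members each passed, and none of the 4 antiviral TRIM genes was higher past the test. Of all genes, 13.2% passed.

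The 2 dye orientations were also compared. The difference between the ratios of the Cy5 and the Cy3 arrays was tested over the 3 sets, and 0 of 58 members passed (limma, adjusted p under 0.05), with 5 of 8331 genes past the test (0.06%). At an unadjusted p under 0.05 there were 17 of 58 members and 2313 genes (27.8%), shares close to each other. In the fit to the 6 single arrays, 2 members passed, Rnf14 and Rnf34 (277 genes, 3.32%). Rnf34, an inhibitor of death receptor signalling, had 0.17, 0.27 and 0.14 in Cy5 and -0.12, -0.26 and -0.25 in Cy3, with a difference of 0.40 (limma, adjusted p = 0.0474) around a mean of -0.0077. Trim10, a gene of red cell formation, showed 0.24, 0.49 and 0.17 in Cy5 and -0.63, -0.40 and -0.05 in Cy3, and Rnf187 showed 0.06, 0.17 and 0.23 in Cy5 and -0.21, -0.50 and -0.22 in Cy3. In these 3 genes, singled out after their values were seen and not past the treatment test, the sign went with the dye. It also did so on all arrays for Rnf123 (means of 0.11 in Cy5 and -0.13 in Cy3). In the other direction it did so for Rnf113a2 (-0.15 and 0.14) and Trim2 (-0.12 and 0.12). For Rnf225, Rnf19a, Rnf4, Rnf103, Rnf151, Rnf170 and Rnf227 the orientation means differed by at most 0.033.

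**Figure D3:**
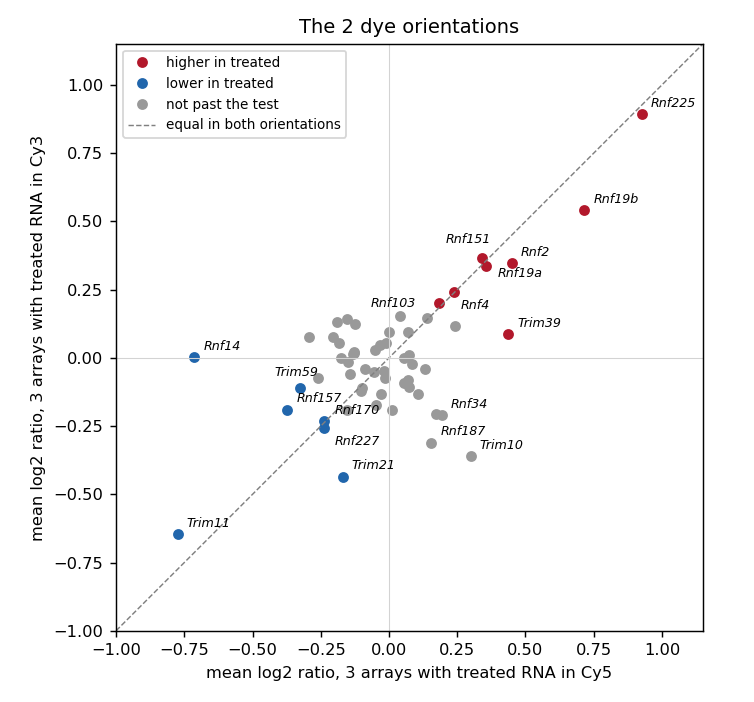
Mean log2 ratio of treated over untreated RNA on the Cy5 arrays (horizontal axis) against the Cy3 arrays (vertical axis), 3 of each, for the 58 Rnf and Trim genes in the fit. Points on the dashed line gave the same ratio in both orientations. Rnf225, Rnf19b, Rnf2, Rnf19a and Trim11 lie away from 0 in both orientations, with Rnf225 and Rnf19a nearest to the line among them. Rnf19b lies at 0.72 against 0.54, and Rnf14 at -0.71 against 0.0019.

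The 10 members with no complete probe had ratios on 1 to 5 arrays. Trim16 had -0.16 and -0.64 in Cy5 (sets 1 and 2) and 0.10, -0.34 and -0.13 in Cy3, and Rnf138 had 0.05 and -0.10 in Cy5 (sets 1 and 3) and 0.25, 0.31 and 0.02 in Cy3. Neither held to 1 sign. Rnf180, Trim29 and Trim42 had ratios on 4 arrays, with means of 0.02, 0.07 and -0.21, and Trim12a and Trim54 on 3 arrays, with means of 0.16 and 0.06. Rnf141 (0.52), Trim17 (0.17) and Trim35 (-1.68) were measured on 1 array each, so their values have no replicate. With incomplete probes included, 65 members could be tested and 9 passed, all of them among the 15. Of all genes, 5.83% passed in that fit, against 13.2% in the main fit.

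Some members lie close together in the genome. By gene order in RefSeq, Rnf225 lies 6 protein-coding genes from Trim28 on chromosome 7, with ratios of 0.91 and -0.02. Trim11 lies 3 genes from Trim17 on chromosome 11, which had 1 ratio (0.17), and Rnf187 (-0.08) is on the other side of Trim17. Of all genes, 13.2% passed the test. Within 2 protein-coding genes on each side, 23 neighbours of 11 members past the test were measured, and 3 of them passed, a share near that of all genes. Beside Rnf14 these were Gnpda1, a sugar metabolism gene, at -0.27 (limma, adjusted p = 0.0317) and Dele1, of mitochondrial stress signalling, in the other direction at 0.21 (adjusted p = 0.0238). Beside Trim59 it was the importin gene Kpna4, also in the other direction, at 0.46 (limma, adjusted p = 0.0293).

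Some RING-type ligases under other symbols had larger ratios than any Rnf or Trim gene. Of 54 such genes in the fit, 11 rose and 4 fell (27.8%, against 13.2% of all genes), with a median ratio of 0.03. The share that rose was 20.4% against 6.96% of all genes, and the share that fell was 7.41% against 6.21%, with no test of the difference made. Birc3, an inhibitor of cell death that acts in NF-kappaB signalling, had 1.61, 1.52 and 1.51 in Cy5 and 1.94, 1.93 and 1.75 in Cy3, a mean of 1.71 ± 0.07 (limma, adjusted p = 9.35e-06). Peli1, a ligase of interleukin 1 and Toll-like receptor signalling, rose by 1.49 ± 0.08, or 2.81-fold (limma, adjusted p = 1.46e-05). Mdm2, the ligase of p53, rose by 1.20 ± 0.15 and Siah2, a ligase of the hypoxia response, by 1.05 ± 0.14. All 4 exceeded Rnf225, the Rnf or Trim gene that rose most, in mean ratio. The 4 that fell were Mgrn1 (-0.32 ± 0.14), Traip (-0.22 ± 0.07), Mkrn2 (-0.18 ± 0.04) and Pml (-0.17 ± 0.03), the last a TRIM protein by structure.

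In 12 ligase genes of the HECT type 0 rose (2 at an unadjusted p under 0.05) and 1 fell (limma), Nedd4l, a ligase of ion channels, at -0.22 ± 0.03 (adjusted p = 0.0191). That was 8.33% of the list, against 13.2% of all genes, and the count was 0 with set 1, 2 or 3 left out, on the Cy3 arrays alone and with incomplete probes. Of 23 genes whose symbols begin with Ube2, 2 rose, Ube2g2 of endoplasmic reticulum degradation (0.38 ± 0.06) and Ube2f, which acts with Rnf7 in loading NEDD8 onto cullin 5 (0.34 ± 0.07). The 2 that fell were Ube2d3, a common partner of RING ligases (-0.39 ± 0.12), and Ube2t of the Fanconi pathway (-0.22 ± 0.01). The share past the test was 17.4% for the Ube2 genes and 11.8% for the partners that follow, against 13.2% of all genes. Among 17 genes in the fit known as partners of Rnf or Trim ligases, on this array or not, 2 rose and 0 fell (limma, 1 lower at an unadjusted p under 0.05), namely Pcgf5, which pairs with Rnf2 in a Polycomb complex (0.24 ± 0.07), and the kinase gene Tbk1 (0.23 ± 0.07). The Rnf2 partners Ring1 and Bmi1 were at -0.02 ± 0.05 and -0.20 ± 0.30 and did not pass, and likewise Rybp at 0.14 ± 0.02, Pcgf2 at 0.01 ± 0.22 and Pcgf6 at -0.0062 ± 0.03. Rbck1, a partner of the ligase encoded by Rnf31, which is not among the 68 members, was at 0.01 ± 0.05. Some genes stand in 2 of these lists.

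**Figure D4:**
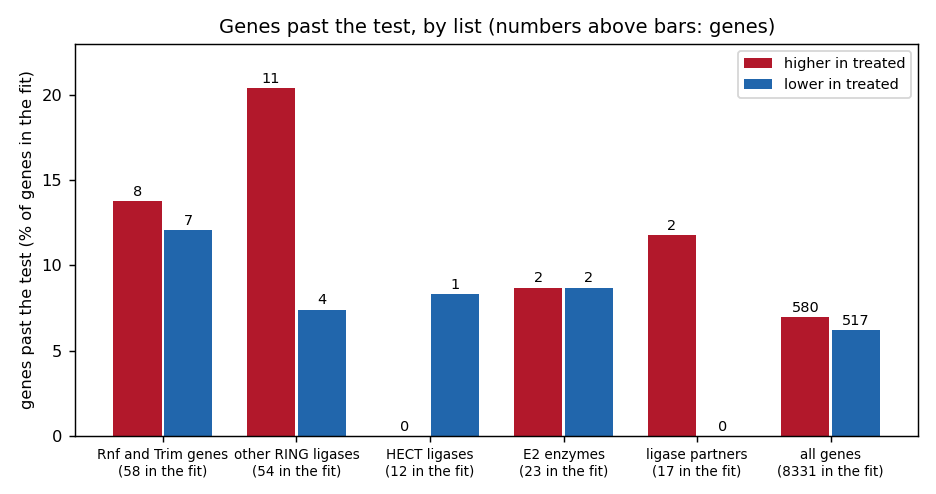
Share of genes past the test (vertical axis, % of genes in the fit) that were higher (red) or lower (blue) in treated cells, for the Rnf and Trim genes, 4 related lists and all genes, with gene counts above the bars. The Rnf and Trim genes had 8 higher and 7 lower, and the other RING ligases 11 higher and 4 lower.

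The 5 members that passed in each of the 12 alternative fits were Rnf225, Rnf19b, Rnf2, Rnf19a and Trim11. These fits reuse the same arrays, and the share of all genes that passed in each of the 12 is not given here. At a threshold of 0.01, Rnf14 and Trim21 joined these 5 members, and the other 8 did not pass, while 6.46% of all genes passed. With set 1 left out 7 of the 15 passed, with set 2 left out 11 and with set 3 left out 12, besides Rnf167. A fit with fewer sets has fewer residual degrees of freedom, and of all genes 5.99%, 9.97% and 9.99% then passed.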

How the data were processed

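Per the labels, treated and untreated total RNA shared each of 6 dual-channel arrays. What was deposited is a log2 ratio per probe and array (16281 probes), the base being read from the values: per array, 99.7% to 99.9% of non-zero values are 6-digit log10 numbers over log10 of 2. Background correction and normalization are not given in the sources used here. Medians of the deposited columns were 0.0043 to 0.0159, and the method of centring stays unknown. The direction of the ratio is not stated and was read from the channel labels. In that direction Tnf, Il1b and Egr1 were higher in treated cells. Arrays of opposite orientation, as deposited, correlated between -0.633 and -0.145 over genes, and those labelled with treated RNA in Cy3 were turned by -1. No intensities were used, so the number of arrays limits the precision.

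Exact zeros were taken as missing, which left 11442 probes with a ratio on all arrays. In the platform annotation 13738 probes had 1 symbol, 52 had several and 2491 had none, and RefSeq held the identifiers of 13694 and changed 0 symbols. The 9968 complete probes with 1 symbol were averaged to 8331 genes. Set averages were tested against 0 with limma 3.58.1 in R 4.3.3 (2 residual and 4.08 prior degrees of freedom). In simulated data of 8331 genes with 200 changed, this comparison recovered 70% of changes of 0.25 and 100% of those of 0.5, 1 and 2 (log2), and 4.15% of its calls were false. The simulated sets had independent normal noise, with variances taken from the same fit, and no dye effect. That false share therefore gives no error rate for calls in the real data. Named by rule were all members past the test, the 6 largest mean ratios in each direction, a fixed list of symbols, members whose probes disagreed, and up to 4 called genes per direction of each related list. Other members are named to account for the whole set. Members, role groups and lists were chosen with earlier results of these data known. Alternatives were fits to single arrays, each set or orientation left out, other handling of zeros, probes and centring, and a threshold of 0.01.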

Additional observations from a re-analysis of the deposited data

Results flagged for a closer look

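Rnf14 differed between the dye orientations in the fit to 6 single arrays, by -0.72 (limma, adjusted p = 0.0491), with a mean of -0.71 on the Cy5 arrays and 0.0019 on the Cy3 arrays. In the test over set differences it did not pass (limma, adjusted p = 0.12).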

How the results depend on the processing

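Subtraction of array medians, quantile normalization and the probe-level fit each left the same 15 members past the test. The shares of all genes past the test were 12.8%, 12.9% and 13.3%, in this order. The labels do not say what arrays of 1 set share. With orientation means removed, they correlated at -0.0077, -0.281 and -0.0943 over 8331 genes, which did not meet the mark for pairing. In the fit to 6 arrays with a replicate block (correlation 0.0825) and in that with no replicate block, 17 members passed, the 15 plus Rnf11 and Rnf128. Of all genes, 16.1% passed with the block and 17.3% without it. With each set left out in turn, 5 to 6 members rose and 2 to 7 fell, other RING ligases had 6 to 11 calls, HECT ligases had 0, partners had 0 to 2 and the dye test had 0 among members. On the Cy5 arrays alone 4 members fell and 1 partner passed. On the Cy3 arrays alone 4 members rose and 2 fell, and the calls were 7 for other RING ligases, 0 for HECT ligases, 2 for E2 enzymes and 0 for partners. Including incomplete probes gave 4 members that rose, 8 other RING ligases, 0 HECT ligases and 0 partners, and zeros kept as ratios gave 1 partner. At 0.01, 4 members rose and 3 fell, with 7 other RING ligases, 0 HECT ligases and 0 partners. Of all genes, 12.4% passed on the Cy5 arrays alone and 7.79% on the Cy3 arrays alone. With incomplete probes the share of all genes was 5.83%, with zeros kept it was 7.66%, and at the 0.01 threshold it was 6.46%. Signs turned for Rnf14 (0.0019, Cy3 alone) and for the uncalled Rnf135 (0.013 with incomplete probes, 0.012 with zeros kept), Trim28 (0.056, Cy5 alone), Trim33 (0.056, Cy3 alone) and Trim30a (-0.173 to 0.014 with a set left out). The dye test gave 2 members with no replicate block, a fit chosen after seeing the data. Fits with sets or orientations left out rest on fewer arrays. With incomplete probes or with zeros kept, the mean ratio of each of the 15 members stayed as in the main fit. These fits held 10261 and 10512 genes, against 8331 in the main fit. Otherwise the cause was not tested.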
